A study of Mus musculus with 4 samples.

Results

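Beta-defensins, whey acidic protein domain (WFDC) genes, lipocalins, secretoglobins and related defence proteins of secretory epithelium were examined in normal mouse prostate and in prostate tumours of the TRAMP model. A gene was a member if its name began with Defb and a digit (Defb50 left out by the rule), Wfdc and a digit, Lcn and a digit, Scgb or Bpif, or was Slpi, Ltf, Pigr, Camp, Lyz1 or Reg3g. By this rule 114 of 24319 gene names were members, comprising 42 beta-defensins, 19 WFDC genes with Slpi, 10 lipocalins, 24 secretoglobins, 14 BPI fold genes and the 5 genes Ltf, Pigr, Camp, Lyz1 and Reg3g. The comparison used RNA-seq of 2 normal prostates against 2 TRAMP tumours. Every mouse was an F1 male, bred from a C57BL/6 and an FVB parent. The normal prostates came from WT adults of 22 weeks. The tumours were late-stage tumours labelled 24 weeks (24 to 28 weeks in the protocol), from males heterozygous for the Probasin-SV40 transgene, in which the rat probasin promoter drives SV40 large T antigen. That promoter is active in prostate epithelium and responds to androgen. Whether each tumour had its own mouse is not written in the labels, and the p-values therefore reflect only how far these samples spread.

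These families belong to the innate defence of wet epithelia. Beta-defensins are short, disulphide-bonded peptides that disrupt microbial membranes. WFDC proteins carry a whey acidic protein domain, and several, such as Slpi, inhibit serine proteases of neutrophils and microbes. Lipocalins are small barrel-shaped carriers, of which Lcn2 withholds iron from bacteria by binding their siderophores. Secretoglobins are small secreted dimers, and in the mouse the Scgb1b and Scgb2b genes encode the alpha and beta-gamma subunits of the salivary and lacrimal androgen-binding proteins. Pigr, the polymeric immunoglobulin receptor, carries IgA across the epithelium. In the male tract many defensins, lipocalins and WFDC genes are known chiefly from the epididymis, whereas the prostate makes its own subset.

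Values are FPKM (fragments per transcript length and sequencing depth, as computed by Cufflinks) divided by a scaling factor per library, called scaled FPKM. They are per transcript length and can be compared between genes. The libraries held 985509 to 1578847 fragments as implied by the width of the deposited confidence intervals. In the normal prostates, the prostate secretory gene Pbsn, a luminal marker, lay at 7022 and 6280, and all 7 seminal vesicle markers and 6 of 7 epididymal markers were listed at 0 in all 4 libraries. All 7 neuroendocrine markers were higher in the tumours, through which alone they reached the filter for testing, so they had to be higher. In the tumours Pbsn was listed at 0 in tumour 1 and lay at 14.2 in tumour 2. The other 8 luminal markers summed to 2408 and 2773 in the normal prostates, 622 in tumour 1 and 2166 in tumour 2. In tumour 1 the keratin genes Krt8, Krt18 and Krt19 did not exceed 0.705 and the adhesion gene Cdh1 was listed at 0, whereas Cd24a lay at 305 and Hoxb13 at 295. In tumour 2, Krt8, Krt19 and Cd24a were above both normal prostates. In bulk tissue, fewer cells of a type and less RNA per cell cannot be told apart.

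Most members were not detected. Of the 114 members, 80 (70.2%) were listed at 0 in all 4 libraries, against 29.8% of all gene names. A value listed at 0 may also be a failed estimate. The undetected members included Slpi, Camp, Reg3g, 36 of 42 beta-defensins, 8 of 10 lipocalins and 13 of 14 BPI fold genes. Among the WFDC genes 9 of 19 were listed at 0 throughout, and among the secretoglobins 12 of 24. A separate list of 26 epididymal and seminal vesicle genes outside the families, which includes the semen coagulum genes Svs2 to Svs6 and the epididymal protease inhibitor Eppin, had 21 genes at 0 in all 4 libraries.

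Detected beta-defensins and secretoglobins lay almost entirely in 1 cluster each. The beta-defensin cluster between Defb1 and Defb13 (mm10, chr8:21776555-21948622) held 8 members, of which 5 were above 0. Of the other 34 beta-defensins, on chromosomes 1, 2, 8 and 14, 1 was above 0. That one was Defb29, at 4.78 in tumour 2 only. Of 15 WFDC members between Wfdc5 and Wfdc3 (chr2:164176325-164743267), 6 were above 0 in at least 1 library, and so were the 4 WFDC members elsewhere (Wfdc1, Wfdc17, Wfdc18 and Wfdc21). The secretoglobin cluster from Scgb2b7 to Scgb1b27 (chr7:31703779-34022881) held 15 members with 11 above 0. Of the 9 secretoglobins elsewhere only Scgb1a1, the uteroglobin gene of airway club cells, was above 0, at 1.82 in tumour 2. The ends of the secretoglobin cluster were its outermost genes above 0, so this split was partly fixed by that choice. Scgb1b2, Scgb2b2, Scgb1b3 and Scgb2b3 before it and Scgb1b30 after it were listed at 0. On all of chromosome 7, 11 of 21 secretoglobins were above 0.

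**Figure D1:**
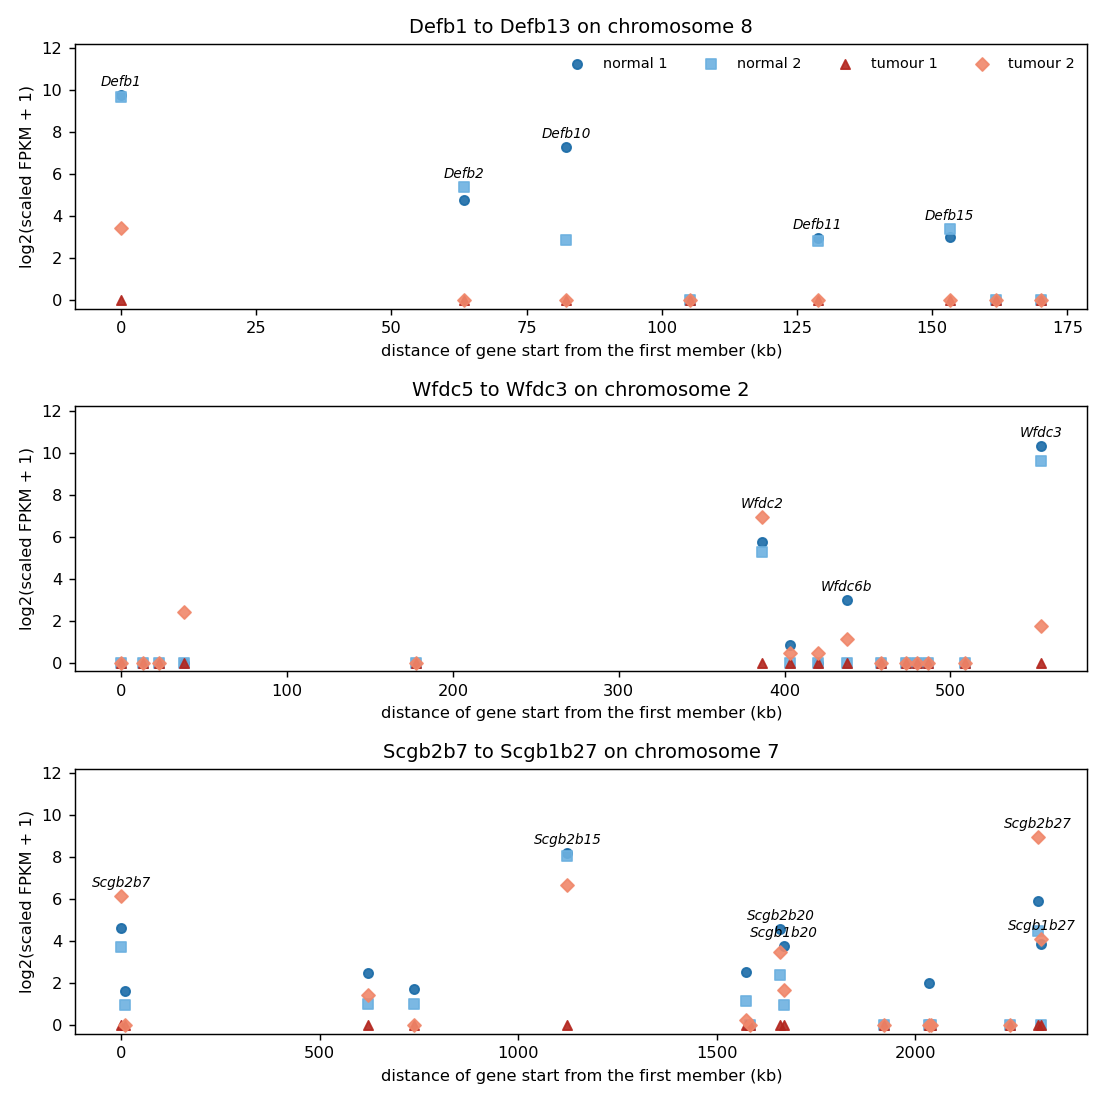
Scaled FPKM of the members in 3 gene clusters, as log2(scaled FPKM + 1), against the distance of each gene's start from the first member in kb. Circles and squares are the normal prostates, triangles and diamonds the tumours. Of 8 beta-defensins in the upper panel 5 are above 0 in the normal prostates and 1 in tumour 2. In the lower panel Scgb2b15 is highest in the normal prostates and Scgb2b27 in tumour 2.

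The families' summed level was lowest in tumour 1, and its make-up differed in tumour 2. The members summed to 3173 and 2460 scaled FPKM in the normal prostates, 79.3 in tumour 1 and 1231 in tumour 2. Beta-defensins contributed 1062 and 871 in the normal prostates, 0 in tumour 1 and 14.6 in tumour 2. WFDC genes contributed 1344 and 824 in the normal prostates, 69.9 in tumour 1 and 282 in tumour 2. Secretoglobins were highest in tumour 2, at 700, against 444 and 313 in the normal prostates and 0 in tumour 1. As a share of all deposited FPKM the members held 0.285% and 0.202% in the normal prostates, 0.0207% in tumour 1 and 0.336% in tumour 2. Without the 7 genes above 1% of any library the order changed, with 0.591% and 0.438% in the normal prostates, 0.0226% in tumour 1 and 0.356% in tumour 2. These shares and sums were not tested.

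**Figure D2:**
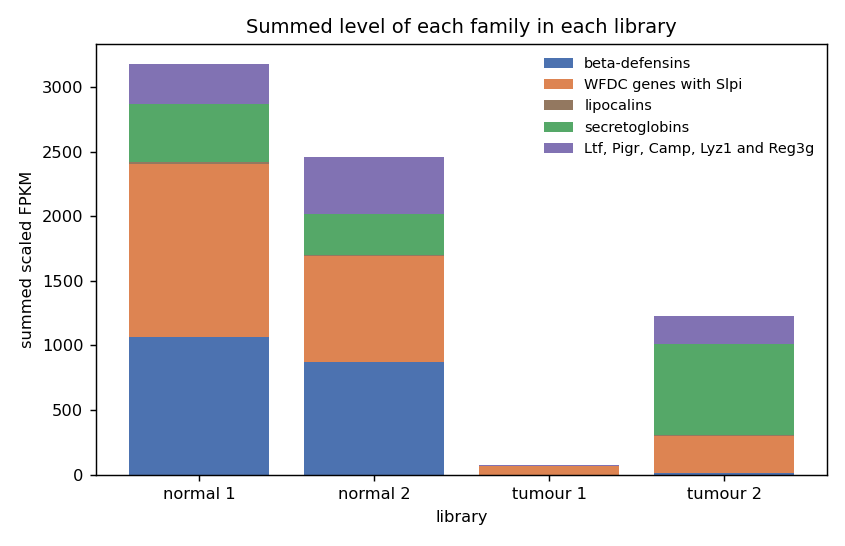
Summed scaled FPKM of the members in each library, stacked by family. The BPI fold genes are left out, since their sum does not reach 0.02 in any library. The normal bars reach 3173 and 2460, tumour 1 reaches 79.3, and the secretoglobins make up 700 of the 1231 in tumour 2.

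Of the 114 members, 20 had an FPKM of at least 1 in at least 2 libraries and were tested with limma across all 13162 such genes, with Benjamini-Hochberg adjustment over all of them. Of these 20 members 5 were lower in the tumours (Wfdc3, Defb1, Defb2, Defb11 and Defb15), 2 were higher (Wfdc17 and Lyz1) and 13 did not pass the adjusted threshold of 0.05. Among all genes tested, 18.1% were called, 8.27% lower and 9.85% higher. At an unadjusted p under 0.05 there were 8 members, against 39.8% of all genes. Both tumours lay below both normal prostates for 9 of the 20 and above both for 2, against 33.3% and 37.7% of all genes, or 71.1% in either direction. A member that reached the filter in the normal prostates alone had to differ, so the members tested do not stand for all 114. The median log2 fold change of the 20, tumour minus normal, was -1.65, against 0.07 over all genes tested. Leaving aside the 4 that both tumours list at 0, it was -1.06. Over all 20 it was -3.35 for tumour 1 and -0.36 for tumour 2, each set against the mean of the normal prostates. In tumour 1, 16 of the 20 were listed at 0 and in tumour 2, 4, against 5.61% and 1.15% of all genes tested.

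**Figure D3:**
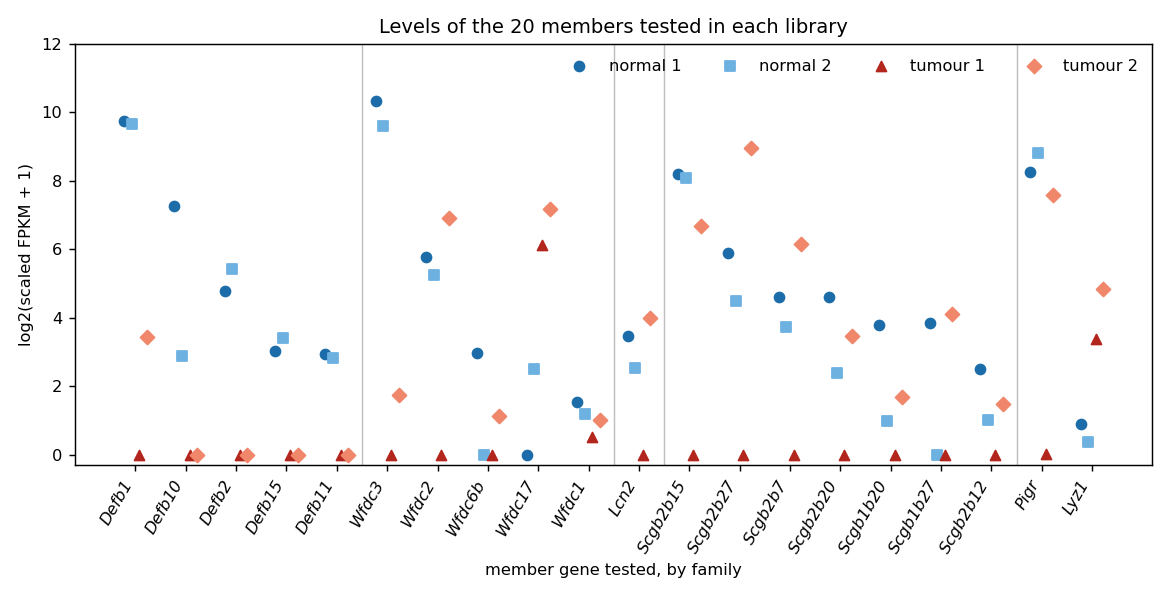
Level of each of the 20 members tested, as log2(scaled FPKM + 1), in each library. Grey lines separate beta-defensins, WFDC genes, the lipocalin Lcn2, secretoglobins, and Pigr and Lyz1. Tumour 1 (triangles) lies at 0 for 16 of the 20 genes, and tumour 2 (diamonds) lies above both normal prostates for 7 and below both for 9 (45.7% and 41.0% of all genes tested).

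The calls depended on which libraries were used. Without normal 1, 4 of the 7 called members could be tested and 0 passed by limma (4 members at an unadjusted p under 0.05). Without normal 2, 4 could be tested and Wfdc17 and Wfdc3 passed. In those fits limma called 1 gene lower and 1 higher of 12722, and 3 lower and 24 higher of 12822. Without tumour 1, 8 members were lower and 4 higher, and without tumour 2, 13 were lower and 1 higher, in fits that assume the lone tumour to vary as the normal prostates do. The 7 calls were the same with FPKM as deposited, with scaling to the FPKM sum without abundant genes and with quantile normalization.

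Beta-defensins were lower in both tumours. All 5 tested members lay in the chromosome 8 cluster and 4 of the 5 passed. Defb2, Defb10, Defb11 and Defb15 were listed at 0 in both tumours, so they reached the filter through the normal prostates alone and had to be lower. The luminal marker Pbsn was lower in both tumours, whereas the other 8 luminal markers were lower in sum chiefly in tumour 1, and their part in the result was not tested. Defb1 (chr8:21776555-21795185), the constitutive epithelial beta-defensin, lay at 867 and 808 in the normal prostates, was listed at 0 in tumour 1 and lay at 9.87 in tumour 2. It ranked 104 and 117 among all genes in the normal prostates and 5796 in tumour 2. On the log2(scaled FPKM + 1) scale it changed by -7.99 (SE 1.13, adjusted p = 0.0230 by limma, 0.0919 without normal 1 and 0.0831 without normal 2). The call was also lost with a pseudocount of 0.1 (adjusted p = 0.0594) and without the filter on low values (0.0525). Implied fragments numbered 655 in normal 1, 894 in normal 2 and 14.0 in tumour 2.

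The other defensins of the cluster were far lower and thinly covered. Defb2 (chr8:21839926-21843481) lay at 26.4 and 41.7 in the normal prostates and was listed at 0 in both tumours (adjusted p = 0.0195 by limma). These values rested on 3.0 and 7.0 implied fragments. Defb15 (chr8:21929813-21932710) lay at 7.11 and 9.63 and was listed at 0 in both tumours (adjusted p = 0.0208), on 1.0 and 2.0 implied fragments, and it overlaps a gene on the opposite strand. Defb11 (chr8:21905374-21906432) lay at 6.72 and 6.07 and was listed at 0 in both tumours (adjusted p = 0.0212), on 1.0 and 0.7 implied fragments. With so few fragments, the levels of Defb11 and Defb15 are poorly measured. By voom on the implied fragments their calls were lost (adjusted p = 0.102 for Defb11 and 0.0640 for Defb15), while those of Defb1 and Defb2 were not. Without either normal prostate, Defb2, Defb11 and Defb15 could not be tested. Defb10 (chr8:21858901-21862010) differed widely between the normal prostates, at 154 and 6.33 on 16.0 and 1.0 implied fragments. It was listed at 0 in both tumours and did not pass (adjusted p = 0.0714). The coding sequences of Defb10 and Defb11 were 84.4% identical, and Defb2 shared runs of 56 and 69 identical bases with them, so the split of fragments among these 3 paralogs is uncertain.

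WFDC genes moved in opposite directions, and the 2 that passed lie on different chromosomes. Wfdc3 (chr2:164731226-164743267), a secreted WFDC protein gene, lay at 1281 and 780 in the normal prostates, was listed at 0 in tumour 1 and lay at 2.36 in tumour 2. With ranks of 75 and 121 it was the member with the highest level in normal 1 and the second highest, after Defb1, in normal 2. Its change of -9.09 in log2 units had an SE of 0.66 and passed (adjusted p = 0.0195 by limma), but not without normal 1 (0.0546). The normal values rested on 837 and 754 implied fragments and that of tumour 2 on 3.0.

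Wfdc17 (chr11:83704056-83706269), known from activated macrophages and microglia, was listed at 0 in normal 1, lay at 4.71 in normal 2 and at 69.5 and 145 in the tumours. Both tumours were above both normal prostates. Its rise of 5.41 in log2 units had an SE of 0.93 and passed (adjusted p = 0.0298 by limma, 0.0902 without normal 1), on 2.0 implied fragments in normal 2 and 44.3 and 77.5 in the tumours. The call was also lost with a pseudocount of 0.1 (0.0791) and without the filter on low values (0.0594). Its neighbours Wfdc18 and Wfdc21 were listed at 0 except in tumour 2, at 2.84 and 4.11, and were not tested.

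Wfdc2 (chr2:164562716-164568506), which encodes the secreted tumour marker HE4, separated the 2 tumours. It lay at 53.3 and 37.3 in the normal prostates, was listed at 0 in tumour 1 and lay at 120 in tumour 2, on 124 implied fragments there. The group difference did not pass (log2 fold change -2.05, SE 2.25, adjusted p = 0.530 by limma). Without tumour 1 it had the opposite sign (1.41), a value that rests on tumour 2 alone. Wfdc1, first described as a protein of prostate stroma, lay between 0.427 and 1.93 in all 4 libraries on at most 2.0 implied fragments. Wfdc6b lay at 6.92 in normal 1, 1.20 in tumour 2 and 0 in the others. The remaining WFDC members above 0 were Wfdc6a, Wfdc8 and Wfdc15b, with a highest value of 4.28 in Wfdc15b in tumour 2.

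The promoters of Wfdc3, Pigr and 3 secretoglobins described next, which differed widely between libraries, are shown as the 250 bases before the start site, 5′ to 3′ on the gene's strand (RefSeq, GRCm38.p6), to let their sequence be set beside their levels. Capitals mark AGAACA or its reverse complement TGTTCT, the hexamer of the androgen receptor element.
Wfdc3 promoter (chr2:164743268-164743517, - strand): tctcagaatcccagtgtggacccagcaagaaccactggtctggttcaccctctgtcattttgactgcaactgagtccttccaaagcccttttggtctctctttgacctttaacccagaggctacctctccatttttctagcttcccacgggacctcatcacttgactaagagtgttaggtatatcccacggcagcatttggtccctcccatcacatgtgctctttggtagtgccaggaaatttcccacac
Pigr promoter (chr1:130826434-130826683, + strand): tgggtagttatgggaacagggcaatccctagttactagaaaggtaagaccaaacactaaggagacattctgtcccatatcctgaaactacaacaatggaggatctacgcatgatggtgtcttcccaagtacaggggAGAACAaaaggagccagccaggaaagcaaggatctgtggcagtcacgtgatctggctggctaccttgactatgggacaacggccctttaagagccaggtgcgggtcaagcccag
Scgb2b15 promoter (chr7:32829654-32829903, - strand): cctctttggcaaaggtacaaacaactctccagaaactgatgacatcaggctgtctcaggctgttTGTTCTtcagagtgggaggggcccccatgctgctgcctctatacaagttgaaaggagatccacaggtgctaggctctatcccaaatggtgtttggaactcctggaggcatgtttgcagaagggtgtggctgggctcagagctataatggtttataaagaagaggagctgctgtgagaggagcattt
Scgb2b7 promoter (chr7:31705755-31706004, - strand): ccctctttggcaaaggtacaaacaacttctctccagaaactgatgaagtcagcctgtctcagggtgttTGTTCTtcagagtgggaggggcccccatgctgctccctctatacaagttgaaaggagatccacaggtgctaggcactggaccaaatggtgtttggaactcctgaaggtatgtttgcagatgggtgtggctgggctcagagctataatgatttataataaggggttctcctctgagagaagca
Scgb2b27 promoter (chr7:34013943-34014192, - strand): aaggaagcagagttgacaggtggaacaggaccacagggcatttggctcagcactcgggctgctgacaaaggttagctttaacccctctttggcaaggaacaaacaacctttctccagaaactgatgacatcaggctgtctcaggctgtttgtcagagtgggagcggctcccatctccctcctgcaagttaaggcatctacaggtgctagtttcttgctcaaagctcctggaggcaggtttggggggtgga
The hexamer, searched on both strands, was present in the window of 8 of the 14 named members that have one, against 16.1% of 32851 such windows. The 8 were Defb10, Defb11, Defb15, Lyz1, Pigr, Scgb2b15, Scgb2b20 and Scgb2b7. They include Lyz1, which was higher in the tumours, and the window of Wfdc3, which was lower, held no match. A link between the hexamer and these levels was not tested. Several of these windows belong to recent duplicates and are not independent. The Scgb2b15 window lies before 1 start site, inside the summed interval of the 2 table rows that give its level. Scgb2b15, Scgb2b7 and Scgb2b20 held it at bases -186, -182 and -179, counted from the start site, and no match was found in the Scgb2b27 window. None of the 14 held the full androgen receptor element (the hexamer, 3 bases of any kind, then TGTTCT), the forkhead motif TGTTTAC, the NF-kB motif or the PU.1 motif GAGGAAGT, which were present in 0.00913%, 3.17%, 0.356% and 2.44% of all windows. Matches overlapping another motif were counted for each motif.

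Secretoglobins were far apart between the tumours, and none of the 7 tested passed. All 7 were listed at 0 in tumour 1 and above 0 in tumour 2, where 3 were above both normal prostates and 1 was below both (45.7% and 41.0% of all genes tested). Scgb2b27 (chr7:34011919-34013942), a beta-gamma subunit of androgen-binding protein, lay at 59.1 and 21.7 in the normal prostates, at 0 in tumour 1 and at 496 in tumour 2, 12.3 times the normal mean. It ranked 113 among all genes in tumour 2, where 328 implied fragments supported it. Scgb2b7 (chr7:31703779-31705754) followed it, at 23.4 and 12.3 in the normal prostates, 0 in tumour 1 and 70.3 in tumour 2. Scgb2b15 (2 table rows summed, chr7:32827683-33056552) had the reverse order, at 295 and 270 in the normal prostates, 0 in tumour 1 and 101 in tumour 2. So the most abundant secretoglobin was Scgb2b15 in both normal prostates and Scgb2b27 in tumour 2. Scgb2b20 (chr7:33364343-33366319) lay at 23.2 and 4.24 in the normal prostates, 0 in tumour 1 and 10.1 in tumour 2.

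The adjusted p by limma was 0.869 for Scgb2b27, 0.713 for Scgb2b7, 0.166 for Scgb2b15 and 0.381 for Scgb2b20. Without tumour 1 the sign of Scgb2b27 (log2 fold change 3.75) and Scgb2b7 (1.99) turned positive, and that of Scgb2b15 remained negative (-1.47). These 3 values rest on tumour 2 alone and say nothing of the spread between tumours. The other 3 tested members, Scgb1b20, Scgb1b27 and Scgb2b12, had no value above 16.4 and adjusted p-values of 0.350, 0.963 and 0.358. The 5 members above 0 that were not tested reached at most 4.82.

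Scgb paralogs differ in how far their fragments can be told apart. The first 90 bases of 3 coding sequences (GENCODE M21) show this, with capitals where a base differs from Scgb2b27.
Scgb2b27: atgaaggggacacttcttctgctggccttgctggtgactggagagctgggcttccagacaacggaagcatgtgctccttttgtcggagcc
Scgb2b7: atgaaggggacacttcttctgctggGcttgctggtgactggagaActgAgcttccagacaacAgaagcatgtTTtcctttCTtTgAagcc
Scgb2b20: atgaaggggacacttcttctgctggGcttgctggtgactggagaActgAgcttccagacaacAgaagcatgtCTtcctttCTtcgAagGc
Each of the lower 2 differs from Scgb2b27 at 10 of these 90 bases. Over the whole coding sequence Scgb2b7 and Scgb2b20 were 98.2% identical, with a run of 126 identical bases, so their separate values are uncertain. Scgb1b7 and Scgb1b29 were 100% identical and had near-equal values, 2.12 and 2.30 in normal 1. Scgb2b27 was at most 67.6% identical to the other Scgb2b members above 0, with no shared run over 33 bases. These percentages count gaps in the alignment as differences. Scgb2b15 reached at most 64.9%, with no shared run over 40 bases, but its coding sequence has 246 bases against 336 in Scgb2b20. Of these 246 bases 218 were identical to Scgb2b20, so the percentage understates how alike the 2 genes are. The summed interval of Scgb2b15 overlaps 11 other annotated genes, among them Scgb2b17 and pseudogenes on the same strand, which were not compared, and Scgb1b15 on the opposite strand, so its value is also uncertain.

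**Figure D4:**
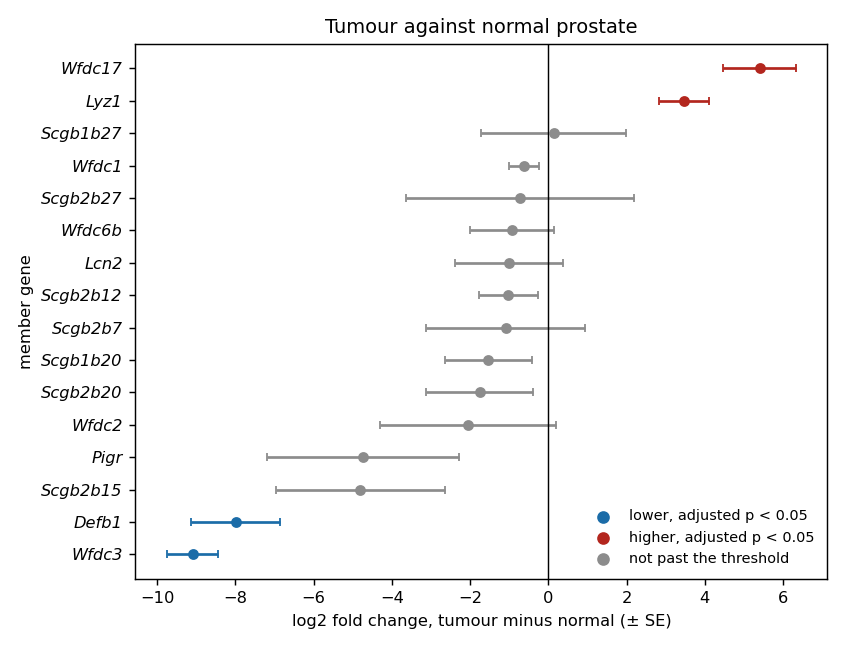
Log2 fold change, tumour minus normal, with its SE for the 16 tested members above 0 in both groups, on the log2(scaled FPKM + 1) scale. Defb1 and Wfdc3 (blue) passed as lower and Wfdc17 and Lyz1 (red) as higher. The bars of Scgb2b27, Pigr, Wfdc2 and Scgb2b15 are wide, and these genes' tumours lie far apart.

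Pigr and Lcn2 shared the low level in tumour 1. Pigr (chr1:130826684-130852249) lay at 307 and 447 in the normal prostates, at 0.0103 in tumour 1 with no implied fragment, and at 192 in tumour 2 on 1435 implied fragments. In scaled FPKM both tumours were below both normal prostates, but the difference of -4.73 in log2 units (SE 2.45) did not pass (adjusted p = 0.212 by limma). In FPKM as deposited tumour 2, at 288, lay between the normal prostates, at 244 and 308. Its position below them therefore rests on the scaling. The scaled change of Pigr was -0.95 without tumour 1, near the log2 shift of 0.94 that the scaling makes between the groups. Without tumour 2 it was -8.52. Lcn2 (chr2:32384637-32387739) lay at 10.01 and 4.84 in the normal prostates, was listed at 0 in tumour 1 and lay at 14.9 in tumour 2 (adjusted p = 0.614), and without tumour 1 its log2 fold change was 0.99. Lcn6 was the other lipocalin above 0, at 3.54 in normal 1 only. Ltf, the iron-binding milk protein lactoferrin, lay at 0.733 in normal 1 and 0.957 in tumour 2 and at 0 in the others.

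Lyz1 (chr10:117287795-117292868), the lysozyme of Paneth cells, lay at 0.876 and 0.296 in the normal prostates and in the tumours at 9.325 and 27.6. Both tumours were above both normal prostates. Its rise of 3.46 in log2 units had an SE of 0.64 and passed (adjusted p = 0.0328 by limma, 0.151 without normal 1 and 0.177 without normal 2), on 23.7 and 58.0 implied fragments in the tumours. Without the filter on low values the call was lost (0.0646). Lyz1 reached that filter through the tumours alone, so it had to be higher. The coding sequences of Lyz1 and Lyz2, the lysozyme of myeloid cells, were 95.0% identical with a run of 118 identical bases, so the split between them is uncertain. Lyz2 was listed at 0 in normal 1 and lay at 1.84 in normal 2 and at 94.2 and 206 in the tumours.

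Some but not all macrophage markers were higher in the same libraries as Wfdc17 and Lyz1. Of 8 markers, which include Lyz2, 4 rose (Cd68, C1qb, C1qc and Lyz2) and 4 did not pass. C1qb and C1qc did not pass by voom, nor when low genes were kept, and C1qc did not under quantile normalization. With either normal prostate left out, Cd68, C1qb and C1qc did not pass, and Lyz2 did not without normal 1. The 8 markers summed to 22.4 and 19.7 in the normal prostates, 193 in tumour 1 and 602 in tumour 2. Lyz2, whose split from Lyz1 is uncertain, made up 94.2 of the sum in tumour 1 and 206 of that in tumour 2. The lysosomal marker Cd68 was at 0 in the normal prostates against 13.1 and 31.2 in the tumours, through which alone it reached the filter. The surface receptor Adgre1 lay at 2.75 and 1.45 against 1.36 and 4.47, and Csf1r at 3.04 and 1.20 against 0.787 and 6.68. In tumour 1 both were below both normal prostates. The part of macrophage content in the rise of Wfdc17 and Lyz1 was not tested.

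**Figure D5:**
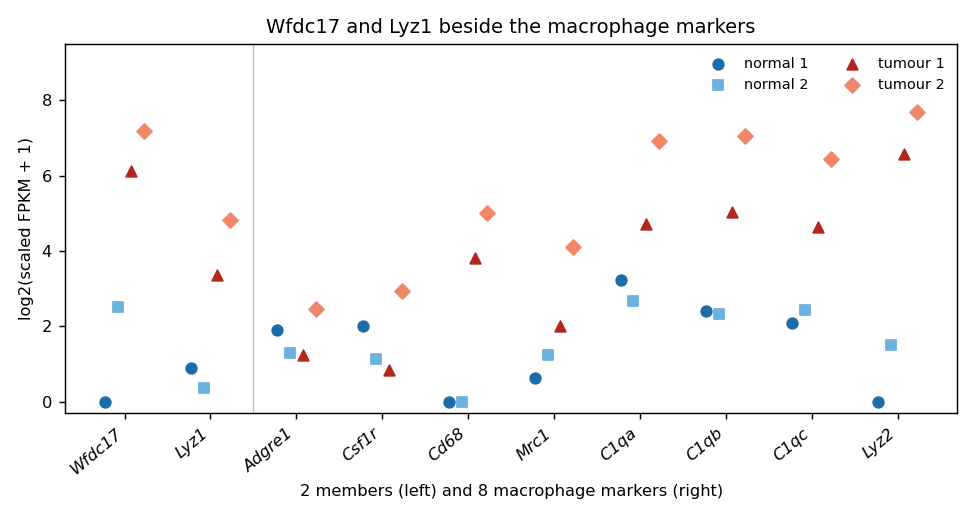
Wfdc17 and Lyz1 (left) and the 8 macrophage markers (right) in each library, as log2(scaled FPKM + 1). For both members and for Cd68, C1qa, C1qb, C1qc, Mrc1 and Lyz2, tumour 2 (diamonds) is highest and tumour 1 (triangles) second, while Adgre1 and Csf1r overlap between the groups.

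Other mucosal defence genes outside the families went both ways. Of all genes tested, 18.1% were called, 9.85% higher and 8.27% lower. From a list of 43 present, 21 were tested, 2 rose, 2 fell and 17 did not pass. The rises were those of Lyz2 and of the calprotectin subunit gene S100a8, at 0 in the normal prostates against 4.33 and 10.2 in the tumours (adjusted p = 0.0293 by limma), a call that voom and the fit with low genes kept did not make. The falls were those of Spink1 and Itln1. Spink1, a secreted trypsin inhibitor, lay at 222245 and 241111 against 0 and 48.5 (adjusted p = 0.0208 by limma). The lectin gene Itln1 lay at 51.7 and 34.3 in the normal prostates and was listed at 0 in both tumours (adjusted p = 0.0195). Itln1 reached the filter through the normal prostates alone and S100a8 through the tumours alone, so each direction was fixed. With either normal prostate left out, Itln1 could not be tested and the calls of Spink1 and S100a8 were lost. The call of Lyz2 was lost without normal 1. The median log2 fold change of the 21 was -1.29, and 0.87 over 20 tested without tumour 1. Agr2, a secretory-pathway disulphide isomerase, lay at 785 and 844 against 0.740 and 74.0 and did not pass (adjusted p = 0.0700).

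Of 32 tested epithelial regulators and receptors that induce defence genes, 0 rose at the adjusted threshold by limma, 3 fell and 29 did not pass. Among all genes tested, 9.85% rose and 8.27% fell. With FPKM as deposited 0 of the 32 rose and 1 fell, and by voom 0 rose and 5 fell. Il17rc, a subunit of the interleukin 17 receptor, lay at 20.3 and 20.1 in the normal prostates against 2.09 and 5.40, a change of -2.25 in log2 units with an SE of 0.49 (adjusted p = 0.0423). It did not pass with a pseudocount of 0.1, with either other FPKM scaling, or without the filter. Spdef, a secretory epithelial factor, lay at 181 and 225 against 0 and 11.7 and had an adjusted p of 0.0398 by limma. It did not pass under quantile normalization, with FPKM as deposited, with a pseudocount of 0.1 or without the filter. The calls of Il17rc and Spdef were also lost with either normal prostate left out. The median of the 32 was -0.92, with 28 negative fold changes, and -0.22 with 20 negative with FPKM as deposited.

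Receptors and partners of the members were mostly low or did not pass. From a list of 11 present, 6 were tested and 1 rose, the fatty acid binding protein gene Fabp5 (6.20 and 13.4 against 158 and 88.3, adjusted p = 0.0228 by limma), though not without the filter on low values. With FPKM as deposited 3 of the 6 rose. Slc22a17, a receptor for Lcn2, lay at 17.8 and 18.7 against 57.3 and 24.0 (adjusted p = 0.189). Lrp1, an endocytic receptor that takes up lactoferrin, lay at 1.90 and 1.85 against 11 and 4.92 (adjusted p = 0.0920), and the transferrin receptor gene Tfrc at 6.32 and 3.61 against 13.9 and 7.53 (0.213). The chloride channel gene Ano1 lay at 34.4 and 42.0 against 0 and 20.9 (0.187) and Anxa2, a membrane-binding annexin, at 120 and 109 against 19.4 and 109 (0.291). Jchain, which joins the IgA that Pigr carries, was at 0 in the normal prostates against 0.652 and 6.14 in the tumours. Ccr6, a receptor for beta-defensins, and Marco were listed at 0 in all 4 libraries, and Lrp2 and Mc1r did not exceed 0.5502 in any.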

How the data were processed

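RNA was measured by sequencing in 2 normal prostates and 2 TRAMP tumours. Per the file headers, the authors deposited a Cufflinks gene table per library with FPKM and its interval. The submitters' processing notes name the tools Cufflinks and Cuffdiff (2.1.1), TopHat2 (2.0.8) and Trim Galore, and the build mm10; annotation and strand use were not given in the sources used here. The labels give no batch.

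After removal of 27 rows whose names had become dates, rows were summed by name and libraries scaled by median of ratios over 11469 genes (factors 0.793 and 0.689 for normal, 1.34 and 1.50 for tumour, a log2 shift of 0.94 between groups). Genes reaching FPKM 1 in 2 or more libraries were tested two-sided on log2(scaled FPKM + 1) by limma 3.58.1 (R 4.3.3) with an intensity trend, after tests on simulated data. Sequences were read with biopython 1.88. Implied fragments treat the interval as Poisson error of 2 SD and cover counting error only. Fold changes understate low genes, and none is given against a group with both libraries at 0. Positions are those deposited, counted from 1.

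Members, lists and tests were chosen with earlier results of these data known. Members were named if past the threshold, if a group's mean reached 10 scaled FPKM, or among up to 3 per family farthest apart between the tumours with a value of at least 5. In the other lists, genes past the threshold (up to 4 a direction) and all receptors and partners were named, except that some single genes of these lists are not reported here. Other genes named singly were chosen after their values were seen. Alternatives were other scalings, pseudocounts and filters, no trend, voom, and leaving out each library.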

Additional observations from a re-analysis of the deposited data

How the results depend on the processing

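The counts of members called lower (5) and higher (2) were the same with FPKM as deposited, with scaling to the FPKM sum without genes above 1%, with quantile normalization, with a pseudocount of 5 and without the intensity trend. With a pseudocount of 0.1 the higher count was 1, without the filter on low values it was 0 (11 members at an unadjusted p under 0.05), and by voom on the implied fragments the lower count was 3; the cause was not tested. Leaving out 1 library gave 0 to 13 members lower and 0 to 4 higher, with a median of the members from -5.09 to -0.37. Over all genes, limma called 1296 higher and 1088 lower. The counts were 3681 and 427 (89.6% higher) with FPKM as deposited, 2537 and 554 (82.1% higher) with the other sum, 245 and 249 without the filter, and 1 to 2076 higher and 1 to 3397 lower leaving out 1 library. The median of all genes was 0.86 with FPKM as deposited and 0.62 with the other sum.

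Of 193 values of named members under an alternative, 163 kept sign and side of the threshold, 13 lost the call, 12 gained it and 5 turned sign. Leaving out 1 library took Lcn2 from -3.003 to 0.99, Scgb2b27 from -5.21 to 3.75, Scgb2b7 from -4.17 to 1.99 and Wfdc2 from -5.51 to 1.41, the positive value being that without tumour 1. The negative values are against tumour 1 alone, where these 4 genes are listed at 0, and depend on the pseudocount. The fifth was Scgb2b27 with a pseudocount of 5 (0.28). The members' share of FPKM without genes above 1% of a library was 0.591% in normal 1 and 0.438% in normal 2, and as implied fragments 0.291% and 0.278% in the normal prostates, 0.00482% in tumour 1 and 0.191% in tumour 2. No paired analysis was possible, since the normal prostates came from WT mice and the tumours from transgenic ones. The labels give sample codes that link none of them, and the numbers 1 and 2 used here only name samples. Members that rest on a few implied fragments (Defb2, Defb10, Defb11, Defb15, Wfdc6b) are limited by depth.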

Other observations

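Beyond the comparisons above, urothelial and smooth muscle markers differed between the tumours as many members did. The 6 urothelial markers summed to 367 and 492 in the normal prostates, 0.613 in tumour 1 and 208 in tumour 2, of which Krt20 made up 160. The 6 smooth muscle markers summed to 631 and 586 in the normal prostates, 3.86 in tumour 1 and 113 in tumour 2. The 5 basal markers summed to 80.8 and 80.5 in the normal prostates, 9.64 in tumour 1 and 34.6 in tumour 2. The 9 neutrophil markers summed to 2.44 and 2.83 in the normal prostates, 8.02 in tumour 1 and 27.9 in tumour 2, with Mpo and Ngp at 0 in all 4 libraries. The 5 fibroblast markers summed to 123 and 98.7 in the normal prostates, 49.9 in tumour 1 and 352 in tumour 2. These sums were not tested. Of their single genes by limma, Krt5 (basal) and Myh11 (smooth muscle) fell and S100a8 (neutrophil) rose, and these calls were lost without either normal prostate. The Krt5 and Myh11 calls were also lost with FPKM as deposited, and S100a8 reached the filter through the tumours alone.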
